A study of Mus musculus with 6 samples.

Results

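The genes described here are 10 genes of the NRF2 pathway in wild-type B16 cells, a mouse melanoma line: Nfe2l2, Keap1, Hmox1, Nqo1, Gclc, Gclm, Txnrd1, Srxn1, Gstp1 and Gstp2. They were taken by symbol from the RefSeq annotation of GRCm38, and all 10 of 10 were found among its 21883 protein-coding genes. Their peaks were collected from 2 CUT&Tag peak lists, of the promoter mark H3K4me3, which is histone H3 with its lysine 4 trimethylated, and of p300, a histone acetyltransferase found at promoters and enhancers. Peaks were assigned to a gene if they reached to within 1 kb of an annotated end (counted as at an end), lay inside the gene, or reached to within 50 kb of an end. In CUT&Tag an antibody guides a transposase to chromatin, which then inserts sequencing adapters beside the bound protein.

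The series concerns thymine DNA glycosylase (Tdg) in p53-deficient cancer. Both lists are titled WT and carry the genotype WT, and the cells grew in DMEM with fetal bovine serum and antibiotics, with no treatment named and 1 library per antibody. The genotype also reads WT for the libraries titled as knockouts, so the titles were followed. The libraries titled TdgKO, Trp53KO, TdgTrp53DKO and WT for H3K9me3 were not analysed here, so no genotypes are compared. There are no replicates, and the genes were selected on their peaks in these same lists, so no test was made and counts are given beside the same count over all protein-coding genes.

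NRF2, the product of Nfe2l2, is a transcription factor that pairs with small MAF proteins at antioxidant response elements. KEAP1 binds it in unstressed cells and hands it to a ubiquitin ligase, and oxidants or electrophiles disable KEAP1 so that NRF2 accumulates. Its targets make glutathione, reduce thioredoxin and peroxiredoxin, degrade haem and conjugate electrophiles. p300 acts as a coactivator of NRF2.

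Start windows of 7 promoters are shown first because the peaks below separate them. Each is the 250 bases before an annotated start in RefSeq, build GRCm38.p6, 5′ to 3′ on the strand of the gene. Capitals mark letters that match TGACNNNGC or TGANTCA. TGACNNNGC is a version of the core of the antioxidant response element. TGANTCA is the AP-1 type site and was also searched with GCA directly after it. The longer form contains the shorter, and both strands were searched.
Gstp1, chr19:4037913-4038162, minus strand: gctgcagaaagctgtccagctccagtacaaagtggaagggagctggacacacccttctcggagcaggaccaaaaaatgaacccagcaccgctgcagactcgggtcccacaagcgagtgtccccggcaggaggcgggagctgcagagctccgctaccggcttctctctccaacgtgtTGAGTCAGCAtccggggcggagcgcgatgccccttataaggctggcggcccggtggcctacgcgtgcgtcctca
Gstp2, chr19:4042222-4042471, minus strand: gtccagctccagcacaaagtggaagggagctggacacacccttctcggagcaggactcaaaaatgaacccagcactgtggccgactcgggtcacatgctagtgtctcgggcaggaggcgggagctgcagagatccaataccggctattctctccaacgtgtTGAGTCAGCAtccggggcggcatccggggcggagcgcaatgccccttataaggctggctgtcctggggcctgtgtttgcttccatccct
Srxn1, chr2:152105274-152105523, plus strand: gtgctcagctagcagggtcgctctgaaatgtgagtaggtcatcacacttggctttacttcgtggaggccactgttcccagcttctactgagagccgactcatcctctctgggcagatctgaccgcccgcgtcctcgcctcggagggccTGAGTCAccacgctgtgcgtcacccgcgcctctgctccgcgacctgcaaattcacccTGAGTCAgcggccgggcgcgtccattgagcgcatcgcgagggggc
Nqo1, chr8:107403206-107403455, minus strand: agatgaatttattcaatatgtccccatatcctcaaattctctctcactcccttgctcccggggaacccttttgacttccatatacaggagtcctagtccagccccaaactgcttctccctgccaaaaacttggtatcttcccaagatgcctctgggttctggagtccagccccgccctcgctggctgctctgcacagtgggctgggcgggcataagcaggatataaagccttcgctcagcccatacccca
Gclm, chr3:122245307-122245556, plus strand: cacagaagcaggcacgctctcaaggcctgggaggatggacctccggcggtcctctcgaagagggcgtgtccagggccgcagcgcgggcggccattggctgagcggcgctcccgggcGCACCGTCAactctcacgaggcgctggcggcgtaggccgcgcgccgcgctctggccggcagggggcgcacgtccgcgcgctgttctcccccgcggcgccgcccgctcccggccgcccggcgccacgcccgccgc
Txnrd1 second start, chr10:82858956-82859205, plus strand: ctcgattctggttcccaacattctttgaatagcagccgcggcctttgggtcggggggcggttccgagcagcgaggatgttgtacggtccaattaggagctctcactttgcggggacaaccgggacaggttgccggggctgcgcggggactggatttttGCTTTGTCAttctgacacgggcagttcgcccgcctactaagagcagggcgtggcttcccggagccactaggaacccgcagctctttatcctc
Txnrd1 first start, chr10:82833701-82833950, plus strand: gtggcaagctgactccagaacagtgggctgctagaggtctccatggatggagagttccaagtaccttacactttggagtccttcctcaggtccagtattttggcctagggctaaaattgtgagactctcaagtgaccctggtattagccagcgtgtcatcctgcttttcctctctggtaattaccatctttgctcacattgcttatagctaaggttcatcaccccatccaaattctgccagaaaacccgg

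The promoter table held 8 of the 10 genes with 10 starts, 3 of them for Txnrd1, and not Hmox1 or Gclc, whose ends are therefore called lower and upper by coordinate. Strand and starts come from this table, and exons and introns were not used here. Searched over 300 bp, with 50 bases after the start included, TGANTCA followed by GCA occurred at 2 of the 10 starts, those of Gstp1 and Gstp2, 74 and 89 bases before the start, and at 0.306% of 21237 starts of protein-coding genes. TGANTCA with or without GCA was found at 3 of the 10 starts, those of Gstp1, Gstp2 and Srxn1, and at 6.99% of all starts. Srxn1 held it 102 and 45 bases before its start. The motifs were chosen after the start windows had been seen, so these shares are description only. The windows of Gstp1 and Gstp2 were identical at 77.1% of aligned positions, so their matches are not independent. TGACNNNGC was found at 4 of 10 starts, those of Nfe2l2, Srxn1, Gclm and the second start of Txnrd1, and at 13.0% of all starts. The match of Srxn1 lay 28 bases after its start, outside the letters shown, and the window of Nfe2l2 is not shown. A match describes these letters only, and sites outside the windows were not searched. A start without TGACNNNGC may still hold another version of the antioxidant response element.

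Both lists concentrate reads at few places, and each peak has a fold enrichment, a −log10 q and a summit. The fold is the authors' ratio of the summit to a background, and the reads at the summit and in that background were recovered here from the fold and the p-value. A summit is a height at 1 position, so gene length does not enter it. The H3K4me3 list held 27019 nuclear peaks with a median of 80.0 reads at the summit and a median fold of 6.24. The p300 list held 6512 with 39 reads and a fold of 5.76. Intervals for reads at a summit are exact 95% Poisson intervals and cover counting error only. As a check of the cell type, H3K4me3 lay at an end of 6 of 7 melanocyte genes (Mitf, Sox10, Tyr, Tyrp1, Dct and Pmel, not Mlana) and of 2 of 17 genes of other cell types, Cd68 and Col1a1.

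H3K4me3 was found inside the gene or within 1 kb of an end for all 10 genes, against 58.9% of protein-coding genes. It lay at an end of 8 of 10 (background 50.5%), Gclc and Txnrd1 being the exceptions, and within 1 kb of a listed start for 8 of the 8 genes with one (52.8%). p300 lay at an end of 6 of 10 genes (13.5%), namely Nfe2l2, Keap1, Hmox1, Nqo1, Srxn1 and Gstp1, and inside or at an end of 7 of 10 (20.0%), with Txnrd1 added. It lay within 1 kb of a listed start for 6 of 8 (14.4%), where Txnrd1 joined and Hmox1 had no start to use. Within 50 kb, 9 of 10 genes had p300 (43.6%), with Gclm the exception, and 5 of 10 had 3 or more p300 peaks (8.83%). These were Nfe2l2, Keap1, Hmox1, Gstp1 and Gstp2. The 5 peaks of Gstp1 were all among the 6 of Gstp2, so this locus counts for both genes. Peaks at the ends of other genes were included, such as Hnrnpa3 near Nfe2l2, Mcm5 near Hmox1, and Kri1 and Cdkn2d near Keap1. Of the 8 genes with H3K4me3 at an end, 6 had p300 there (26.5% of all genes with H3K4me3 at an end). These positions are what the genes were selected on, so the shares are given as description. The p300 peak nearest inside the 1-kb limit was 106 bp from Gstp1 (fold 3.39), and the nearest outside it was the same peak, 2482 bp from Gstp2. At the 50-kb limit, p300 at 48788 bp from Keap1 (fold 5.35) was just inside and at 50471 bp from Gstp1 (fold 4.83) just outside, and H3K4me3 at 49550 bp from Keap1 (2.21) was inside and at 50407 bp from Gstp1 (4.37) outside.

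**Figure D1:**
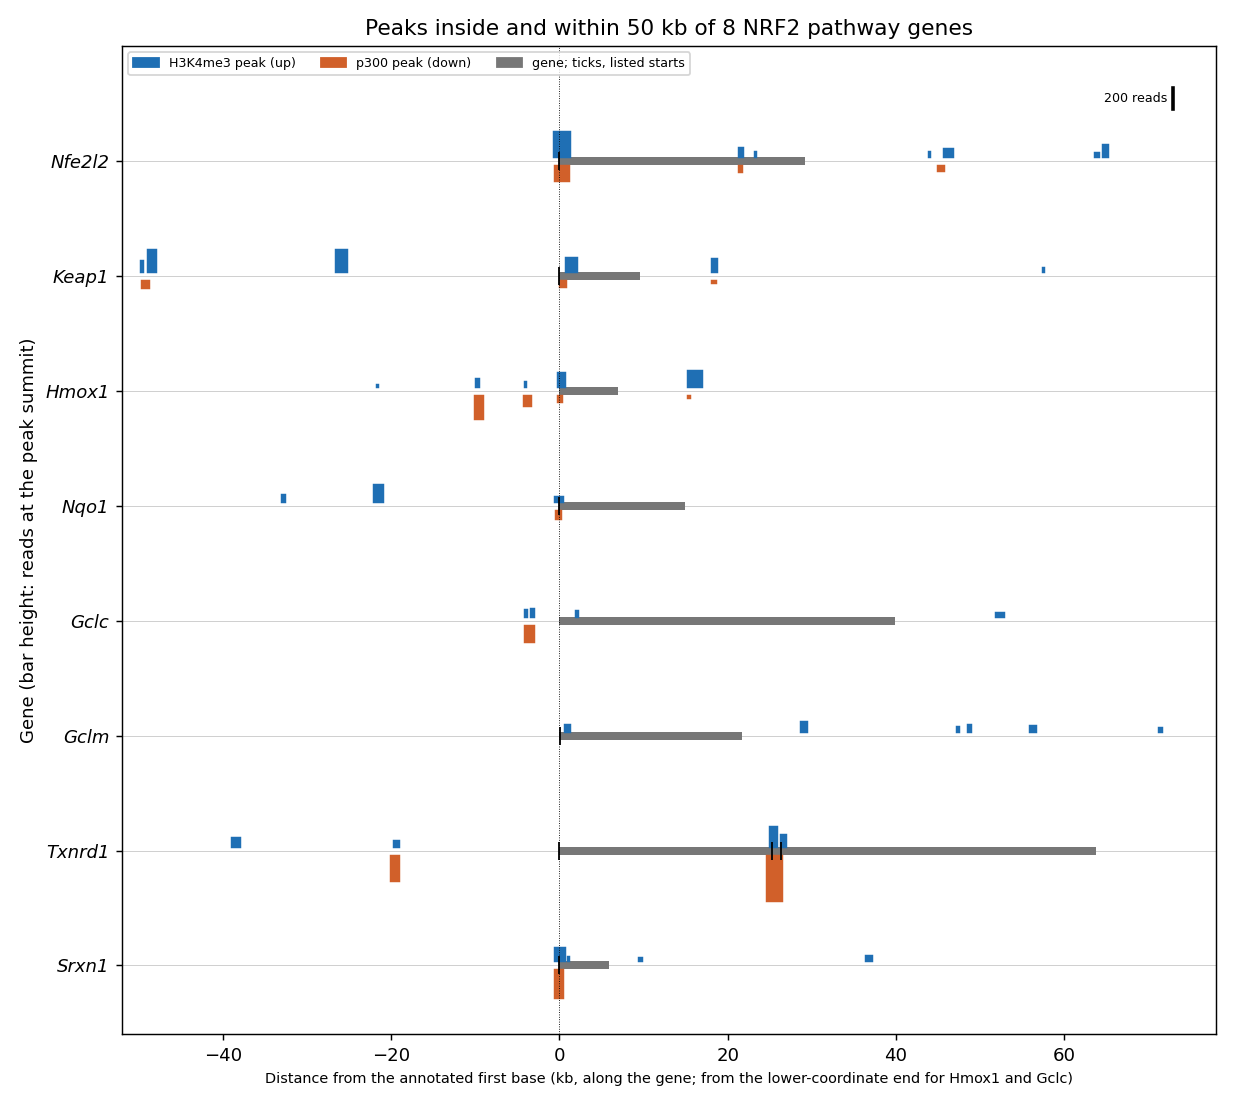
Peaks inside and within 50 kb of the ends of 8 genes, by distance from the annotated first base in kb, with H3K4me3 peaks above and p300 peaks below each gene line. Bar height is the number of reads at the summit and bar width the width of the peak. The highest p300 bar, of 431 reads, lies inside Txnrd1 at the second and the third listed start, and Gclm has no p300 bar.

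Of the regulators, Nfe2l2 (chromosome 2, 75675513 to 75704663, minus strand) carried the highest H3K4me3 summit of the 10 genes, 238 reads (209 to 270) in a peak of 1916 bp across its start, with a fold of 6.26. A p300 peak of 1767 bp lay on it with 154 reads (131 to 180) and a fold of 6.71, and its summit was 711 bp into the gene while that of H3K4me3 was 119 bp in. A second pair lay inside the gene, 7336 and 7432 bp from its lower end, where H3K4me3 from 75682849 to 75683479 reached 94 reads and p300 from 75682945 to 75683470 reached 70 reads, with summits 182 bp apart. A further H3K4me3 peak inside the gene, of fold 3.57, had no p300. The third p300 peak near Nfe2l2, of fold 5.55, lay at the end of Hnrnpa3, an RNA-binding protein gene, and of the noncoding Gm39859.

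Keap1 (chromosome 9, 21229730 to 21239332, minus strand), the repressor of NRF2, had its marks side by side, with little overlap. The p300 peak from 21238561 to 21239365 covered the start with 70 reads (54.6 to 88.4) and a fold of 5.87. The H3K4me3 peak from 21237248 to 21238631 ended 701 bp inside the start, and its summit of 137 reads lay 1673 bp into the gene. The summits were 1417 bp apart, the largest gap among the 19 p300 peaks near these genes that overlapped H3K4me3. The median gap of those 19 was 204 bp (quartiles 116 and 299.5), and that of all 5568 overlapping p300 peaks was 152 bp (62.75 and 284). Another pair lay beyond the lower end of Keap1, at 8385 bp for H3K4me3 (fold 8.84) and 8473 bp for p300 (fold 5.41), and at no annotated gene end.

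Hmox1 (chromosome 8, 75093618 to 75100593), which encodes the haem-degrading enzyme heme oxygenase 1, had its strongest p300 away from the gene. The mouse gene is known for upstream enhancers with clustered antioxidant response elements. A p300 peak from 75083436 to 75084478 ended 9140 bp below the lower end and reached 228 reads (199 to 260) with a fold of 8.69, which ranked 80 of 6512 p300 peaks by −log10 q. H3K4me3 at the same place had 80 reads and a fold of 11.0 in a peak of 556 bp, and its summit was 1 bp from that of p300. A second p300 peak from 75089275 to 75090270, 3348 bp below the lower end, had 105 reads (85.9 to 127) and a fold of 3.96, over an H3K4me3 peak of 254 bp and 54 reads. At the lower end itself H3K4me3 was strong, with 140 reads and a fold of 7.12 in 1029 bp.

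The p300 peak at the lower end of Hmox1 shows how fold and reads part. It had 71 reads at the summit, more than 82.5% of p300 peaks, over a background of 24.2 reads, and a fold of 2.86, higher than 0.829% of them. The same held for the peak of 105 reads, whose background was 25.8 reads. The p300 fold at an end was lowest at Hmox1, while Keap1 had the lowest summit there, of 70 reads. The remaining p300 peak in the 50-kb range, of 31 reads, lay at the end of Mcm5, a replicative helicase gene.

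Gclc and Gclm encode the catalytic and the modifier subunit of glutamate cysteine ligase, the rate-limiting enzyme of glutathione synthesis, and neither had p300 at an end. Gclc (chromosome 9, 77754535 to 77794489) had its p300 from 77750277 to 77751531, 3004 bp below the lower end, with 163 reads (139 to 190) and a fold of 4.84. Its summit held more reads than 97.3% of p300 peaks, over a background of 32.9 reads. H3K4me3 peaks of 71 and 83 reads lay inside this p300 peak, and another, of 63 reads, lay 1846 bp inside the lower end. No H3K4me3 came within 1 kb of either end of Gclc, and the peak at 1846 bp is the nearest beyond that limit for any of the 10 genes. The nearest within it is the second H3K4me3 peak of Srxn1, at 881 bp.

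Gclm (chromosome 3, 122245487 to 122267215, plus strand) had H3K4me3 of 66 reads (51.0 to 84.0) and a fold of 6.59 in 690 bp, with the summit 723 bp into the gene. The peak also came within 1 kb of the end of the noncoding Gm46822. No p300 peak was listed within 50 kb, and the nearest lay 403907 bp away. The lists name only peaks above a cut-off, so any weaker p300 at Gclm would not appear in them. The smallest p300 summit listed anywhere had 14 reads. The other 5 H3K4me3 peaks within 50 kb lay beyond its upper end, 3 of them at the ends of Dnttip2 or of a tRNA gene and its neighbours Gm40190 and Mir760.

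**Figure D2:**
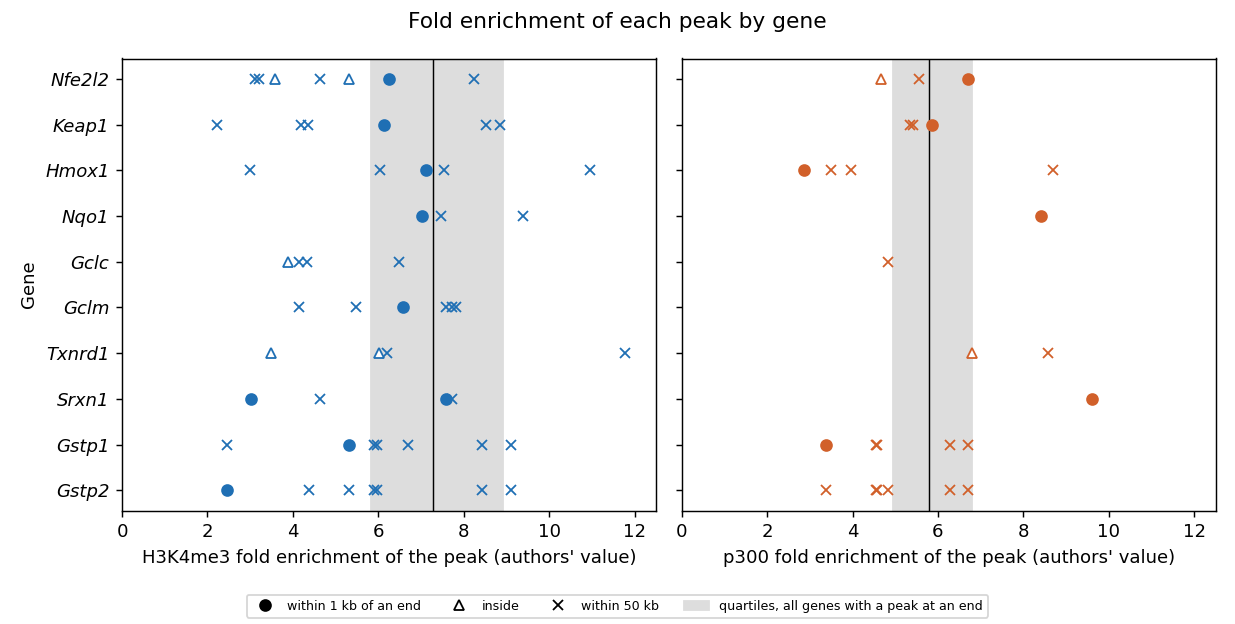
Fold enrichment of every H3K4me3 peak (left) and p300 peak (right) assigned to each gene, by position relative to the gene (circles, within 1 kb of an end; triangles, inside; crosses, within 50 kb). The line and band are the median and quartiles over all protein-coding genes of the strongest peak at an end. The strongest H3K4me3 at an end lies between 2.45 and 7.58 in the 8 genes that have one, and the p300 folds at an end run from 2.86 at Hmox1 to 9.61 at Srxn1.

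The p300 summit with the most reads and the p300 peak with the highest fold lay at the thioredoxin genes. Txnrd1 (chromosome 10, 82833951 to 82897724, plus strand), which encodes cytosolic thioredoxin reductase, has 3 listed starts, at 82833951, 82859206 and 82860341. No peak came within 1 kb of the first or of the upper end. At the second and the third, which lie inside the annotated span, a p300 peak from 82858497 to 82860448 covered both starts with 431 reads (391 to 474), a fold of 6.80 and rank 39 of 6512 by −log10 q. H3K4me3 peaks of 188 reads (fold 6.01) and 112 reads (fold 3.48) lay at the second and the third start, with their summits 52 and 6 bp before them. Of these, the p300 peak and the H3K4me3 peak at the second start also came within 1 kb of the end of the noncoding Gm38560. A separate p300 peak from 82813827 to 82814919, 19032 bp before the first start and inside the noncoding 1700028I16Rik, had 249 reads (219 to 282) and rank 72.

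Srxn1 (chromosome 2, 152105524 to 152111376, plus strand), which encodes sulfiredoxin, the enzyme that restores overoxidised peroxiredoxins, had the highest p300 fold of the 10 genes. Its p300 peak from 152104830 to 152105950 covered the start with 269 reads (238 to 303), a fold of 9.61 and rank 54. H3K4me3 covered the same start with 133 reads and a fold of 7.58 in 1294 bp, and the summits were 162 bp apart. A weaker H3K4me3 peak of 53 reads and fold 3.02 lay 944 bp into the gene by its summit. Both TGAGTCA matches of the window above lie inside the p300 peak.

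Nqo1 (chromosome 8, 107388225 to 107403205, minus strand), a quinone reductase and a standard readout of NRF2, had 1 peak of each kind at its ends, both over its start. The p300 peak had 88 reads (70.6 to 108) and a fold of 8.42, higher than 92.1% of p300 folds. H3K4me3 had 55 reads (41.4 to 71.6) and a fold of 7.03 in 1046 bp, over a background of 6.96 reads. It had more reads than 33.0% of the H3K4me3 list and a higher fold than 62.8% of it. The other H3K4me3 peaks within 50 kb lay at the ends of Nob1 and Wwp2.

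The neighbouring copies Gstp1 and Gstp2 differed in their marks. Gstp1 and Gstp2 encode pi-class glutathione transferases, which conjugate glutathione to electrophiles, and lie on chromosome 19 on the minus strand, Gstp1 from 4035411 to 4037912 and Gstp2 from 4040288 to 4042221. Gstp1 had an H3K4me3 peak of 2314 bp from 4035903 to 4038216, the widest at an end of the 10 genes, with 164 reads (140 to 191) and a fold of 5.32. Gstp2 had an H3K4me3 peak of 319 bp from 4041926 to 4042244, with 51 reads (38.0 to 67.1) and a fold of 2.45. The intervals of the summits do not overlap, but they cover counting error only and do not test a difference between the copies. The Gstp2 peak ranked 26863 of 27019 by −log10 q, near the cut-off of the list.

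p300 was likewise listed at Gstp1 and not at Gstp2. Gstp1 had a p300 peak from 4036216 to 4037806, beginning 106 bp inside the start, with 71 reads (55.5 to 89.6) and a fold of 3.39. Its summit lay 1328 bp into the gene and 2 bp from that of H3K4me3, so neither summit was at the annotated start. No p300 was listed at an end of Gstp2. The start windows of the copies are alike in sequence. Over the 300-bp windows, 246 of 319 aligned positions (77.1%) were identical, 35 were mismatched and 38 fell in gaps, and the longest shared run was 43 bp. Reads from stretches that both copies share could be placed at either, and the effect of this on the peaks was not tested.

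The strongest p300 of the locus stood apart from H3K4me3. A peak from 4045649 to 4046722, upstream of Gstp2 by 3428 bp and of Gstp1 by 7737 bp, had 228 reads (199 to 260), a fold of 6.70 and rank 109 of 6512. No H3K4me3 peak overlapped it, and no gene has an end within 1 kb. A second p300 peak without H3K4me3, from 4027687 to 4028259, lay 7152 bp beyond the lower end of Gstp1 with 52 reads and a fold of 6.29. These were the 2 of 21 p300 peaks near the 10 genes without H3K4me3, and 19 (90.5%, exact 95% binomial interval 69.6 to 98.8%) had it, against 85.5% in the whole list. That interval takes the 21 peaks as independent draws, which peaks of 1 library around chosen genes are not. It serves only as a range for judging alternatives and tests nothing. The order turned with a stricter rule, by which 1 H3K4me3 peak alone had to cover 50% of the p300 peak. The shares were then 57.1% (12 of 21) near the genes and 77.8% in the whole list. p300 peaks covered by 2 H3K4me3 peaks together, as at Gclc and Txnrd1, were not added up. In the stronger 50% of both lists the shares near the genes and in the whole list were 44.4% (4 of 9 peaks) and 62.1% by fold. By −log10 q they were 50.0% (7 of 14 peaks) and 63.0%.

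**Figure D3:**
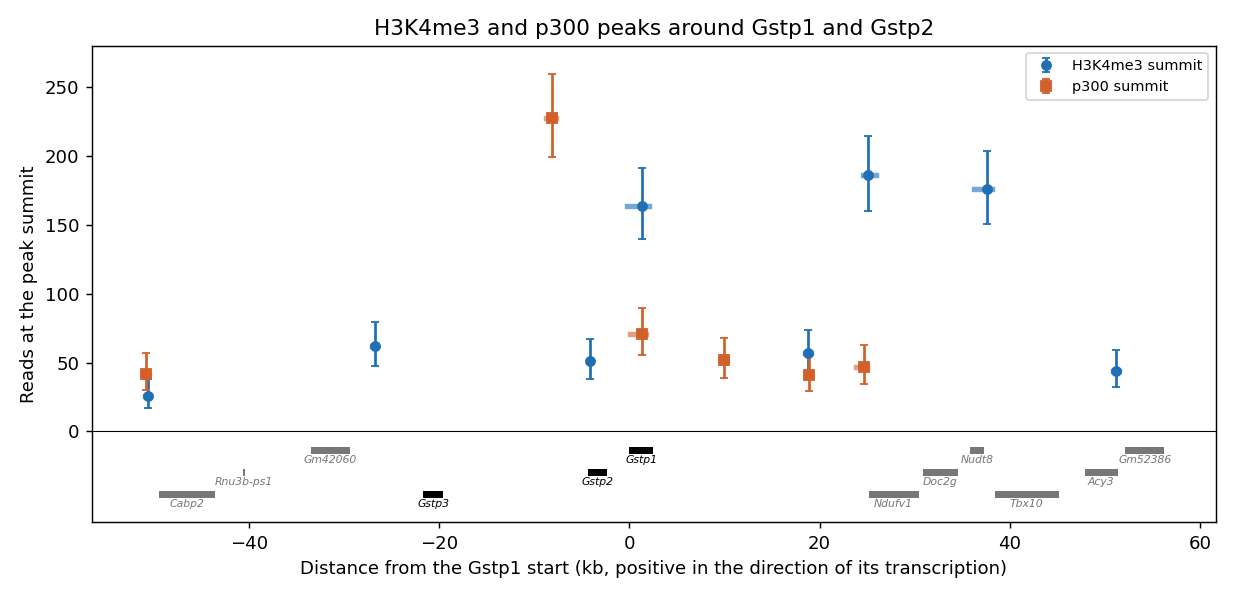
Reads at the summit of each H3K4me3 and p300 peak within 50 kb of Gstp1 or Gstp2, by distance from the Gstp1 start in kb, positive along its transcription, with exact 95% Poisson intervals as error bars, peak widths as horizontal bars and genes below. The p300 summit of 228 reads stands upstream of both genes with no H3K4me3 point beside it, and Gstp2 has an H3K4me3 point of 51 reads.

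Around the Gstp pair, 8 H3K4me3 and 6 p300 peaks were listed in all. Gstp3, a further pi-class copy at 4057470 to 4059605, had no peak of either kind in the gene or at an end, and its start window was identical to that of Gstp1 at 52.3% of aligned positions. Ndufv1, which encodes a subunit of respiratory complex I, had H3K4me3 of fold 8.42 and 186 reads and p300 of fold 4.56. Acy3, Tbx10, Nudt8, Cabp2 and the noncoding Gm52386 had H3K4me3 within 1 kb of an end and no p300 within that distance. Acy3 shared its peak with Gm52386, and Tbx10 with Nudt8. The H3K4me3 peak of Cabp2 was overlapped by a p300 peak that began just beyond 1 kb from the gene. Doc2g, Gm42060 and Rnu3b-ps1 had neither at an end. H3K4me3 of fold 9.10 and 62 reads, from 4064426 to 4064949, lay at no gene end.

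Across the genes, the median p300 peak had more reads than 82.5% of its list and the median H3K4me3 peak more than 44.5% of its own. Of the 21 p300 peaks, 19 had more reads than the median p300 peak, 8 were in the top 10% of the list by −log10 q and 5 in the top 2%: those inside and before Txnrd1, at Srxn1, below Hmox1 and upstream of Gstp2. By fold, 12 of the same 21 were below the median of the list. Of the 47 H3K4me3 peaks, 22 had more reads than the median and 0 were in the top 2% by −log10 q. The strongest H3K4me3 at an end had a median fold of 6.43 over the 8 genes with one (range 2.45 to 7.58), against 7.28 over 11041 protein-coding genes, and a median width of 1170 bp against 1109 bp. At an end p300 had a median fold of 6.29 over 6 genes, against 5.80 over 2957.

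CpG content, which is high at most promoters with H3K4me3, varied widely among the starts. Starts with H3K4me3 within 1 kb had a median of 22 CpG dinucleotides in the 300-bp window and those without it a median of 4. Gclm had 48, more than 98.5% of starts, with H3K4me3 of 66 reads and no p300. Nqo1 had 5, more than 28.4% of starts, with both marks. The first start of Txnrd1 had 3 and no mark, and the second had 27 and both. Gstp1 had 20 and Gstp2 had 12. Srxn1 had 26, Nfe2l2 had 18, Keap1 had 13 and the third start of Txnrd1 had 12.

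**Figure D4:**
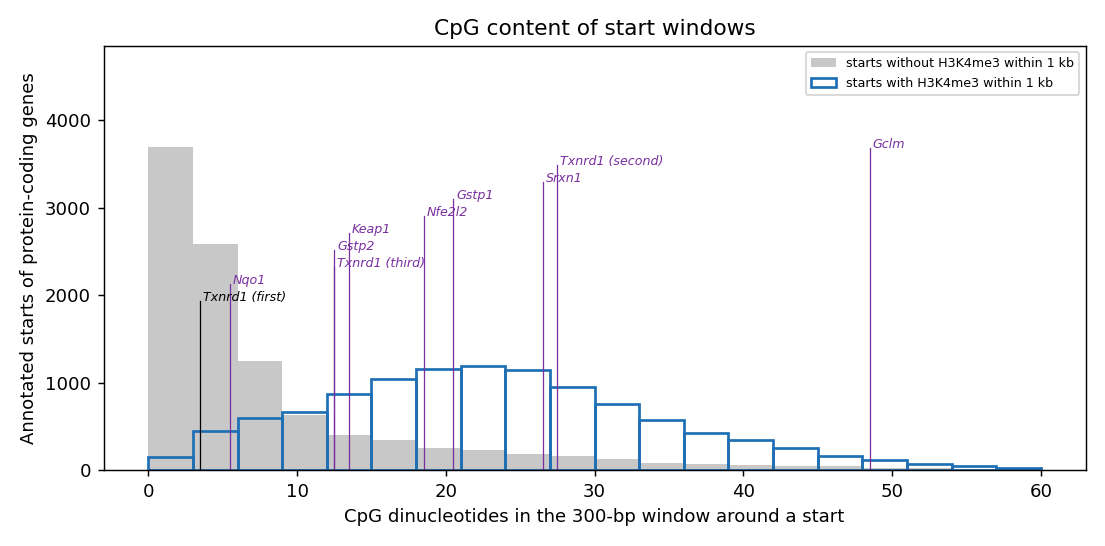
CpG dinucleotides in the 300-bp window around annotated starts of protein-coding genes, as a histogram of starts with and without H3K4me3 within 1 kb, with the 10 starts of the genes marked (purple with H3K4me3, black without). Nqo1 and the first start of Txnrd1 lie together at the low end, 1 with and 1 without the mark, and Gclm lies at the high end.

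The rest of the pathway was read from a list of 87 other genes, all of which matched. H3K4me3 lay at an end of 68 (78.2%, background 50.5%). For p300 the count was 30 at an end (34.5%, background 13.5%) and 71 within 50 kb (81.6%, background 43.6%). H3K4me3 lay within 1 kb of a listed start of 62 of the 77 genes with one (80.5%, background 52.8%). For p300 this count was 33 (42.9%, background 14.4%). A gene without a mark at an end can have it at a start inside its span, as Txnrd1 has. Of the 68 with H3K4me3 at an end, 30 had p300 there (44.1%, background 26.5%). Neighbouring copies can share a peak: Gstm1, Gstm2 and Gstm3 all had p300 of fold 7.69 as their strongest within 50 kb. The list was drawn up with earlier results of these data known.

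For every role below the background is 50.5% for H3K4me3 at an end, 13.5% for p300 at an end and 43.6% for p300 within 50 kb. Among partners and competitors of NRF2, 5 of 7 had H3K4me3 at an end. Bach2 and Nfe2l3 had none there, and Nfe2l1 and Bach1 were those with p300, of folds 5.37 and 6.36. BACH1 represses the same elements that NRF2 activates. Mafk, a small MAF partner, had no p300 within 50 kb. All 6 genes of NRF2 degradation had H3K4me3 at an end, p300 lay at an end of Sqstm1, Rbx1 and Gsk3b, and Cul3 and Dpp3 had none within 50 kb. Sqstm1 encodes the adaptor p62, which draws KEAP1 into autophagy, and its p300 fold was 3.01. Rbx1, the RING subunit of the ubiquitin ligase, had 8.43.

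Of 9 thioredoxin and peroxiredoxin genes, all 9 had H3K4me3 at an end and p300 within 50 kb, and 6 had p300 at an end, the others being Txn2, Txnip and Txnrd2. Txn1, which encodes thioredoxin, had the highest p300 fold of the 87 genes, 10.1, over an H3K4me3 peak of 2423 bp and fold 5.73. Sesn1, a stress-induced sestrin, had p300 of fold 8.01, and Txnrd3 had H3K4me3 of fold 12.2. Of 21 other glutathione transferases, 2 had p300 at an end, Gstm1 (7.69) and Gstz1 (6.99), which is near the background of 13.5%. H3K4me3 lay at an end of 14 of them (background 50.5%), and 16 had p300 within 50 kb (43.6%). Gstm2 and Gstt3 had H3K4me3 of folds 12.2 and 11.4. Of 10 glutathione and cystine genes 7 had H3K4me3 at an end, without Slc7a11, Gpx2 and Gpx4, and 4 had p300 there, namely Chac1, Gsr, Gpx1 and Slc3a2. Glrx had no p300 inside the gene or within 50 kb of an end. Slc7a11, the cystine importer, has an annotated span of 50364936 to 50499087 on chromosome 3, and its peaks lay inside it, farther than 50 kb from either end. They were H3K4me3 of fold 9.67 from 50442762 to 50443586, p300 of fold 4.83 from 50443046 to 50444034 across it, and p300 of fold 7.71 from 50437826 to 50438666.

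All 6 NADPH genes and all 8 iron and haem genes had H3K4me3 at an end, and 3 of each had p300 there, namely Idh1, Taldo1 and Tkt, and Abcb6, Blvrb and Ftl1. Me1 alone of the NADPH genes had no p300 within 50 kb. Idh1, a cytosolic NADPH source, had p300 of fold 8.13 at an end and 8.85 within 50 kb. Fth1, the ferritin heavy chain, had at its end a narrow H3K4me3 peak of 266 bp and fold 2.30, no p300, and within 50 kb a p300 peak of fold 9.78. Abcb6, a porphyrin transporter, had p300 of fold 8.65 within 50 kb. Of 20 other detoxification genes 13 had H3K4me3 at an end and 7 had p300, and the fold of H3K4me3 was highest at Nqo2, with 13.0.

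**Figure D5:**
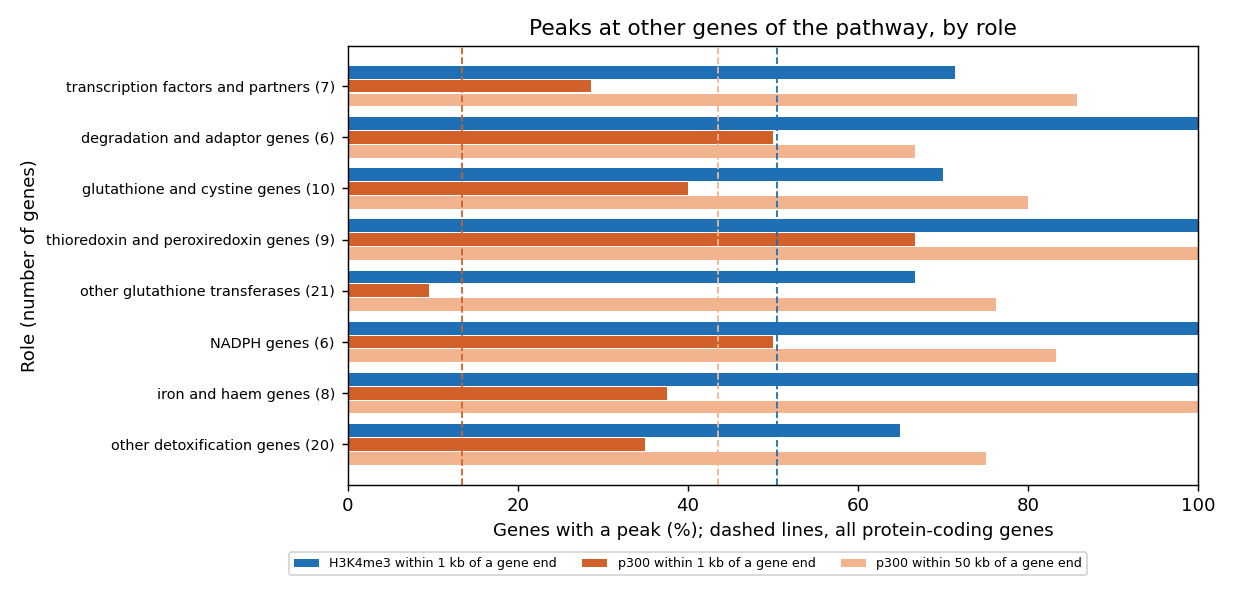
Share of genes with H3K4me3 at an end, p300 at an end and p300 within 50 kb, by role, in the 87 other genes of the pathway, with the number of genes in brackets and the shares of all protein-coding genes as dashed lines. Thioredoxin and peroxiredoxin genes have p300 at an end of 6 of 9 (all protein-coding genes 13.5%). Other glutathione transferases have it at 2 of 21, near that share.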

How the data were processed

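The submitters deposited 1 narrowPeak list for H3K4me3 and 1 for p300. The submitters' processing notes name mm10 as build, and as tools, with no roles, deepTools, Picard 2.22.4, Bowtie2 2.2.5 and Trim Galore. Caller and control are not stated there. Each peak has a deposited fold enrichment (a ratio) and a deposited −log10 p-value and −log10 q-value. The deposited score is 10 times −log10 q without decimals in all but 2 H3K4me3 peaks, and the summit is a deposited offset. Coordinates are 1-based. RefSeq positions are on GRCm38.p6, with the same primary chromosomes as mm10.

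Total depth is unknown. Summit and background reads were solved from fold = (reads + 1)/(background + 1) and an upper Poisson tail, with python 3.11.15 and scipy 1.17.1. Whole numbers met the −log10 p within 0.002 in 99.91% of H3K4me3 and 99.7% of p300 peaks, and in 0.95% and 0.2% of 2000 peaks each when it was raised by 1%. The solver and the calls at gene ends were tested on simulated data. Intervals for reads are 95% and cover counting error only, since PCR copies are not independent molecules.

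Peaks on the mitochondrial chromosome and scaffolds were left out. Overlap means at least 1 bp. Start windows were aligned globally with biopython 1.88. The text names all 10 genes, other genes at their end peaks, RefSeq genes within 50 kb of Gstp1 and Gstp2, the 4 highest folds of the pathway list, and minorities of 4 or fewer within a role. Genes named at other peaks, and Slc7a11's position, were chosen after their values were seen. Members and lists were chosen with earlier results of these data known, and motifs after the start windows had been seen. Alternatives were other windows, the stronger 50% of each list, starts only, and other overlaps.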

Additional observations from a re-analysis of the deposited data

How the results depend on the processing

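Of 50 alternatives to 10 results, 42 stayed close to the value. For counts this meant within 1.5 times the value, and for the overlap share within its interval. For the median H3K4me3 fold and width at an end it meant within the range over the 8 genes. Those ranges, 2.45 to 7.58 and 319 to 2314 bp, are wide, so that rule was easily met. The exceptions came from stricter lists and stricter overlap. In the stronger 50% of the list by fold, and likewise by −log10 q, H3K4me3 lay at an end of 5 of the 10 genes, where all genes had 34.4% and 42.3%. Inside the gene or at an end it was found at 5 genes by fold (42.3% of all genes) and 6 by −log10 q (48.5%), so these shares are near the background. Gclc and Gstp2 were without it in both. Of the 87 pathway genes, 15 had p300 at an end when only the stronger peaks by fold were used (6.93% of all genes). The share of p300 peaks overlapping H3K4me3 was 57.1% (12 of 21) when 1 H3K4me3 peak had to cover 50% of the p300 peak (whole list 77.8%). In the stronger 50% of both lists it was 44.4% (4 of 9) by fold (whole list 62.1%). By −log10 q it was 50.0% (7 of 14, whole list 63.0%). The share thus went from above to below the whole list, on few peaks. p300 at an end fell from 6 genes to 4 in the stronger part by either measure, without Hmox1 and Gstp1, where all genes had 6.93% by fold and 6.50% by −log10 q. Keap1 and Gclm had no H3K4me3 within 500 bp of an end, and Gclc gained it with 2 kb. Without Gstp1 and Gstp2, an alternative chosen after seeing the data, 6 of 8 genes had H3K4me3 and 5 had p300 at an end. No paired analysis was possible because each antibody has 1 library, and no replicate could be left out.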

Other observations

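The windows of 50 kb also took in promoters of other genes. Of the 47 H3K4me3 peaks assigned to the 10 genes, 18 lay within 1 kb of the end of another gene, and of the 21 p300 peaks 5 did. The matching shares over the whole lists were not computed, so these counts are description only. The 2 highest H3K4me3 folds at these neighbours were those of Hcfc2 near Txnrd1, of fold 11.8 and 88 reads, and Nob1 near Nqo1, of fold 9.40 and 164 reads. Atg4d, an autophagy protease gene near Keap1, had H3K4me3 of fold 8.51 and 209 reads and no p300. Kri1 and Cdkn2d, which encodes a cyclin-dependent kinase inhibitor, shared H3K4me3 of 216 reads with p300 of 72 reads beyond the upper end of Keap1.

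Of the 21 p300 peaks, 10 came within 1 kb of no annotated gene end. The share over the whole p300 list was not computed, so the count does not set these genes apart. They were 4 around Gstp1 and Gstp2, 2 below Hmox1, and 1 each below Gclc, before Txnrd1, inside Nfe2l2 and beyond the lower end of Keap1. Their sequences were not analysed here.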
